A study of Homo sapiens with 4 samples.

Results

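The uridines of the human 47S pre-rRNA were examined for changes left in cDNA after crosslinking of RNA to protein. They are the 2122 positions with the letter T among the 13780 nucleotides of the pre-rRNA sequence, and all were taken, whatever segment they lie in. T stands for uridine throughout. Most were isolated: 1431 had no T on either side, and the others lay in 255 runs of 2, 42 runs of 3, 11 runs of 4, 1 run of 5 and 1 run of 6. G was the most common base before a T (808 of 2122), followed by C (690), T (381) and A (243).

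Crosslinking and analysis of cDNA (CRAC) joins a protein covalently to the RNA it touches, and a remnant of the protein stays on the crosslinked base. Reverse transcriptase that reads through such a base can insert a wrong nucleotide or skip it, so substitutions and deletions in cDNA are used to place crosslinks. Ultraviolet light (UV) acts on natural bases and is known to favour uridine, whereas in the photoactivatable mode (PAR) the uridine analogue 4-thiouridine carries the crosslink and is known to be read as C. Modified nucleotides and polymerase errors leave changes of the same kinds without any crosslink.

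The cells were Flp-In T-REx HEK293, a human embryonic kidney line that holds a construct at a fixed genomic site. They expressed NKRF, a G-patch protein and cofactor of RNA helicases, with a Flag-His tag, or the Flag-His tag alone; expression was induced with tetracycline for 24 h, so both cell types carried the tag. Of the 4 libraries of the series, 3 were used: tag-only UV, NKRF UV and NKRF PAR. Both UV libraries came from irradiation at 254 nm. The PAR cells were given 100 µM 4-thiouridine for 6 h before irradiation at 365 nm. Each condition was 1 library, so nothing here has a replicate check, no test across samples was run and no p-value is given.

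A hit is a read covering a position, scaled to 1000000 reads, and each change is given as a share of the hits at its position. Only T with at least 45 hits were used in a library. They numbered 1467 of 2122 with NKRF PAR (69.1%), 1775 with NKRF UV (83.6%) and 1006 with tag-only UV (47.4%). That minimum stood for 10.2 reads with NKRF PAR, 48.9 with NKRF UV and 37.9 with tag-only UV, so single PAR shares are the least exact. In the spacers, which are cut away as rRNA matures, 22 T passed with tag-only UV, and in the 3′ external transcribed spacer (3′ ETS) no T passed in either UV library. Bracketed ranges are 95% intervals that cover counting error only, because PCR copies were not told apart from separate molecules. A group value is the mean of its positions' shares.

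The sites below had some of the highest UV substitution shares, or, at 28S position 2178, the most substituted reads of any T with NKRF UV. They are shown because most follow 1 or more G. The capital marks the changed T, in the middle of 21 bases written 5′ to 3′ as in the deposited sequence.
28S position 4530: gtgagctgggTttagaccgtc
ITS1 position 362: tcgcggcgggTctgggggggt
28S position 639: gggggtggggTcggcggggga
28S position 1494: gccggggaggTggagcacgag
28S position 3677: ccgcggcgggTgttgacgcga
28S position 2178: gcggcgggggTgtggggtcct
28S position 1225: ccgggggaggTtctctcgggg
18S position 1585: gggtaacccgTtgaaccccat
18S position 1248: ttaatttgacTcaacacggga

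The next sites carried high UV deletion shares. They are shown because several open a run of T, and because an isolated T of the 5′ external transcribed spacer (5′ ETS) stands far above them all.
5′ ETS position 1757: accccctccgTccgcgagtcg
ITS1 position 372: tctgggggggTctcggtgccc
28S position 4351: ccttctgaccTtttgggtttt
28S position 4555: gacaggttagTtttaccctac
28S position 512: ccggcggatcTttcccgcccc
18S position 366: ccctatcaacTttcgatggta
28S position 2761: ggggagagggTgtaaatctcg

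The last set held T substituted in nearly every PAR hit. Apart from 28S position 2580 these lie in stretches poor in T.
5′ ETS position 3140: ccccgggcccTcgaccggacc
28S position 4807: gcccccccccTccacgcgccc
5′ ETS position 3274: cgtccccgccTcgccgccgcc
28S position 2580: tccagtgcggTaacgcgaccg

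Across all T at the minimum, NKRF PAR substitutions averaged 17.9% of hits (17.5 to 18.2), with a median of 12.1% and quartiles of 3.60% and 25.8%. NKRF UV substitutions averaged 1.99% (1.95 to 2.04; median 1.25%) and tag-only UV substitutions 1.70% (1.62 to 1.78; median 0.892%). UV deletions averaged 0.498% with NKRF (0.469 to 0.526) and 0.356% with the tag alone (0.305 to 0.407). Deletions were concentrated in few T: 64.2% of T with NKRF and 77.8% with the tag alone had none.

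The letter T set the 3 kinds of change apart from the other nucleotides to different degrees. In NKRF PAR every A, C and G was listed at 0, so the file holds substitutions at T alone, and whether its reads were chosen for a changed T is not given in the sources used here. UV substitutions were no mark of T, since A had more: a mean of 2.81% with NKRF and 5.20% with the tag alone. UV deletions were highest at T in both libraries. Their means at A, C and G were 0.109%, 0.165% and 0.191% with NKRF and 0.0845%, 0.0970% and 0.187% with the tag alone.

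The counts of strongly changed T were read against the same cut-off over all nucleotides. With NKRF PAR 119 T (8.11%) were substituted in at least 50% of hits, against 1.3% of all positions, which are the same 119. With NKRF UV 37 T (2.08%) were substituted in at least 10% of hits, against 1.08% of all positions, and with tag-only UV 18 (1.79%), against 2.75%. Deletions in at least 5% of hits were found at 39 T with NKRF UV (2.2%, against 0.628% of all positions) and at 17 T with tag-only UV (1.69%, against 0.731%).

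Substitutions in both UV libraries depended on the base before the T, and G stood out. At isolated T with NKRF UV the mean share was 3.15% after G (3.04 to 3.25, 553 T), 1.37% after A (1.27 to 1.47, 171 T) and 1.33% after C (1.25 to 1.42, 442 T). With tag-only UV the shares were 2.75% after G (2.54 to 2.95, 244 T), 1.02% after A (0.866 to 1.18, 139 T) and 1.36% after C (1.20 to 1.52, 226 T). The libraries with tagged NKRF and with the tag alone therefore both had G at the top. Medians kept G highest too, at 2.18% against 0.899% after A and 0.991% after C with NKRF, and at 1.82% against 0.542% and 0.854% with the tag alone.

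**Figure D1:**
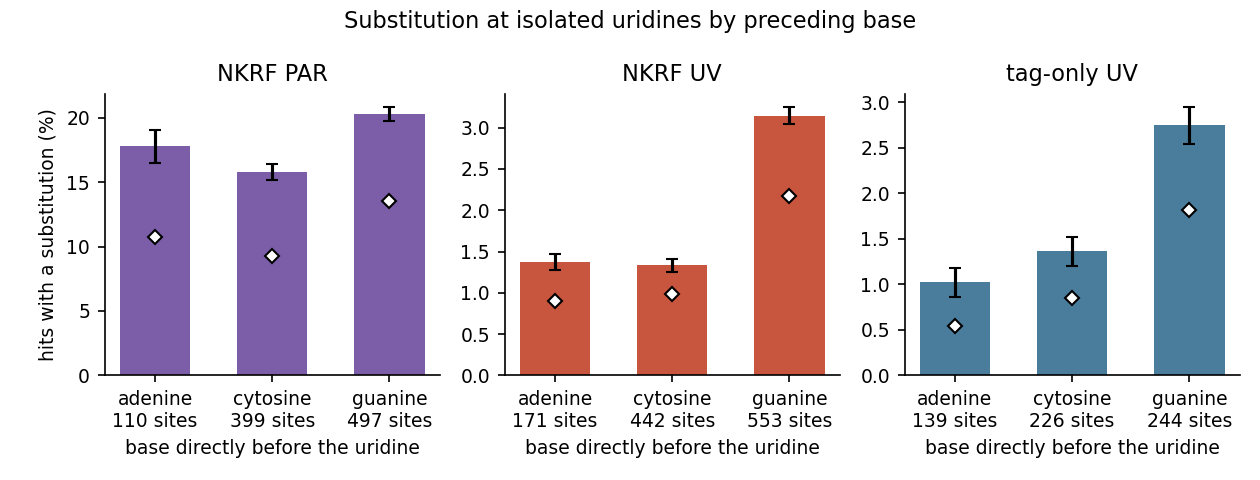
Share of hits with a substitution (%, bars are means over positions, error bars 95% counting intervals, diamonds medians) at isolated uridines after adenine, cytosine or guanine, in the NKRF PAR, NKRF UV and tag-only UV libraries, each panel with its own axis from 0. In both UV panels the bar after guanine stands far above the others (3.15% and 2.75%), while the PAR bars lie between 15.8% and 20.3%.

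Set as a ratio, T after G had 2.34 times the share of T after A or C with NKRF UV (2.21 to 2.48) and 2.23 times with tag-only UV (1.98 to 2.51). Within 18S, one of the mature rRNAs, the ratios were 2.04 (1.91 to 2.18) and 1.97 (1.79 to 2.16). Within 28S they were 2.39 (2.24 to 2.56) and 2.32 (1.95 to 2.76). The spacers gave 2.46 with NKRF UV (2.12 to 2.85), where tag-only UV had 13 and 7 T to compare, with a ratio of 2.41 (0.809 to 7.17). At the 429 isolated T that passed in all 3 libraries, 179 after G and 250 after another base, the ratios were 2.09 (2.0 to 2.19) and 2.17 (1.90 to 2.47). The intervals of the 2 libraries overlapped in each of these comparisons.

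The base after mattered less than the base before, and the highest context joined G on both sides. Isolated T between G and G had 3.93% substitutions with NKRF UV (3.75 to 4.10, 241 T) and 3.70% with tag-only UV (3.32 to 4.08, 97 T). T between G and A followed in NKRF UV at 2.78% and in tag-only UV at 2.46%, and T between G and C had 2.49% and 1.97%. The remaining 6 contexts, with A or C before, lay between 1.09% and 2.02% with NKRF UV and between 0.787% and 1.5% with tag-only UV. All 3 contexts with G before thus exceeded all 6 without it, in each UV library.

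Longer runs of G before the T went with higher shares, a grouping chosen after the first values were seen. With NKRF UV isolated T had 1.34% with no G directly before them (613 T), 2.29% after 1 G (352 T), 4.16% after 2 (133 T) and 5.62% after 3 or more (68 T). Tag-only UV gave 1.23% (365 T), 2.10% (161 T), 3.51% (58 T) and 5.14% (25 T). The medians rose in the same order, from 0.973% to 4.41% and from 0.763% to 4.17%. In 28S alone the shares after 1, 2 and 3 or more G were 2.35%, 4.16% and 6.36% with NKRF UV and 2.15%, 4.15% and 5.8% with tag-only UV. In 18S they were 2.52%, 3.34% and 4.19% and 2.08%, 2.55% and 3.29%, the last value of each resting on 5 T.

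G before C also went with more substitutions, but a longer G run added less than at T. Isolated C after G had 1.47 times the share of C after other bases with NKRF UV (1.38 to 1.56) and 1.74 times with tag-only UV (1.51 to 2.0), and in 28S with tag-only UV 2.28 times (1.79 to 2.90), near the 2.32 of T. For A the ratios were 0.917 (0.873 to 0.962) and 0.967 (0.911 to 1.03). Isolated C after 1, 2 and 3 or more G had 1.83%, 1.91% and 2.57% with NKRF UV and 1.59%, 1.68% and 1.99% with tag-only UV. Isolated A had 2.82%, 2.67% and 3.71% with NKRF UV and 5.52%, 5.12% and 6.59% with tag-only UV. T after 1, 2 and 3 or more C had 1.34%, 1.15% and 1.60% with NKRF UV and 1.26%, 1.23% and 2.13% with tag-only UV. G after the T gave a smaller rise, at 2.48%, 2.71% and 3.83% with NKRF UV and 2.06%, 2.03% and 3.78% with tag-only UV. The kind of substitution is not in the files, so whether a G was read in place of the T was not tested.

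**Figure D2:**
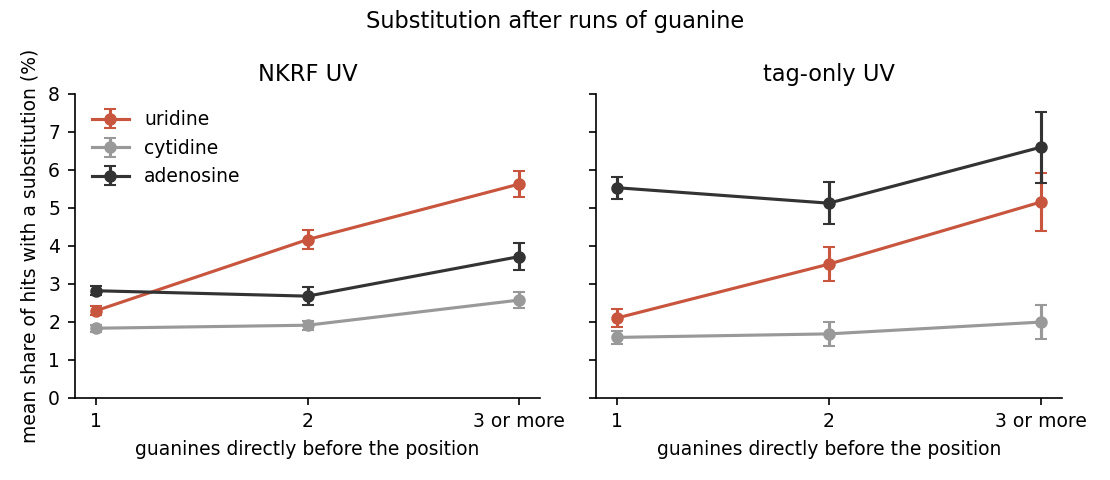
Mean share of hits with a substitution (%, error bars 95% counting intervals) at isolated uridines, cytidines and adenosines after 1, 2 or at least 3 guanines, in the NKRF UV and tag-only UV libraries on a shared axis from 0. The uridine line climbs from 2.29% to 5.62% and from 2.10% to 5.14%, while cytidines stay between 1.59% and 2.57%.

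The strongly substituted T carried the same mark. G preceded 32 of the 37 T past 10% with NKRF UV, against 663 of all 1775 T at the minimum. With tag-only UV it preceded 13 of the 18, against 306 of all 1006. Of 1006 T measured in both UV libraries, 11 passed 10% in both, which is 84.6% of the 13 that passed with NKRF and 61.1% of the 18 that passed with the tag alone. The same overlap was not computed for the other nucleotides, so it cannot be called particular to T. Those 11 were 18S positions 1069, 1248 and 1585 and 28S positions 606, 1225, 1494, 1622, 2135, 3426, 3677 and 4530. All but 18S 1248, after C, and 28S 1622, after A, followed G. Over the 1006 T the shares of both UV libraries had a Spearman correlation of 0.49; the points share the sequence and the segment depths.

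28S position 4530, known as a methylated uridine of the large subunit, had the highest UV substitution share of all T in both UV libraries. It was substituted in 35.8% of hits with NKRF UV (32.0 to 39.9, 209 of 583 reads) and in 27.8% with tag-only UV (18 to 39.1, 21 of 76 reads). The intervals overlapped. Its run neighbours, the next pair of T, had 0.353% and 0.529% with NKRF UV. NKRF PAR covered it with 2 reads, neither changed, and gives no measure there.

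18S position 1248 is known to carry a hypermodified pseudouridine of the decoding centre. It was substituted in 22.0% of hits with NKRF UV (16.7 to 28.6, 45 of 202 reads) and 15.3% with tag-only UV (9.75 to 22.5, 21 of 137 reads). Deletions took a further 8.06% (4.60 to 12.5) and 1.23% (0.177 to 5.17). 18S position 1585 went the other way, with 16.0% with NKRF UV (14.0 to 18.3) and 21.5% with tag-only UV (18.7 to 24.5), intervals that did not overlap. High shares at these T were thus present with the tag alone.

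ITS1 position 362 was high in both NKRF libraries, at 28.5% with UV (25.3 to 31.9, 212 of 743 reads) and 56.7% with PAR (50.4 to 62.7, 149 of 263 reads). Tag-only UV had 9 reads there, 3 of them changed, too few for a comparison. At 28S position 639, after 4 G, NKRF UV had 23.2% (17.6 to 29.9), and tag-only UV had 0 of 17 reads with an upper bound of 19.5%. 28S position 2178, which gave the most substituted reads of any T with NKRF UV (972 of 9438), had 10.3% with NKRF UV (9.69 to 10.9), 9.56% with tag-only UV (6.55 to 13.2) and 3.24% with NKRF PAR (2.46 to 4.16).

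PAR substitutions varied less with the base before than with the number of other T nearby. Isolated T averaged 20.3% after G (19.8 to 20.9, 497 T), 17.8% after A (16.5 to 19.1, 110 T) and 15.8% after C (15.2 to 16.4, 399 T), and the ratio of G to A or C was 1.25 (1.20 to 1.31). It was 1.37 in the spacers (1.29 to 1.45), 1.19 in 28S (1.11 to 1.28) and 0.886 in 18S (0.739 to 1.06), where the direction differed. T after 1, 2 and 3 or more G had 17.7%, 24.9% and 25.8%. The UV ratio at the same 429 T was 2.09 with NKRF, against 1.24 with PAR (1.15 to 1.34).

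The number of other T within 15 bases on either side gave a steeper order. Isolated T with 0 to 2 others nearby averaged 31.1% PAR substitutions (30.1 to 32.0, 187 T), those with 3 to 4 had 18.3% (342 T), those with 5 to 6 had 13.9% (279 T) and those with 7 or more had 12.2% (11.3 to 13, 198 T). UV substitutions fell along the same classes, from 2.97% to 1.69% with NKRF and from 2.84% to 1.35% with the tag alone. The neighbouring base and the number of nearby T both reflect base composition, so these groupings are not independent of one another. Whether PAR reads were chosen for a changed T is not given, and such a choice would raise shares where other T are few. The PAR order therefore cannot be told apart from an effect of read choice, which was not tested. Within the classes T after G stayed above other T in both UV libraries, by 2.58 times with NKRF in the class of 0 to 2 (2.29 to 2.91) and 1.74 times in the class of 7 or more (1.55 to 1.96). For PAR the ratio was 1.24 in the class of 0 to 2 (1.16 to 1.32) and 1.04 in that of 7 or more (0.905 to 1.20).

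**Figure D3:**
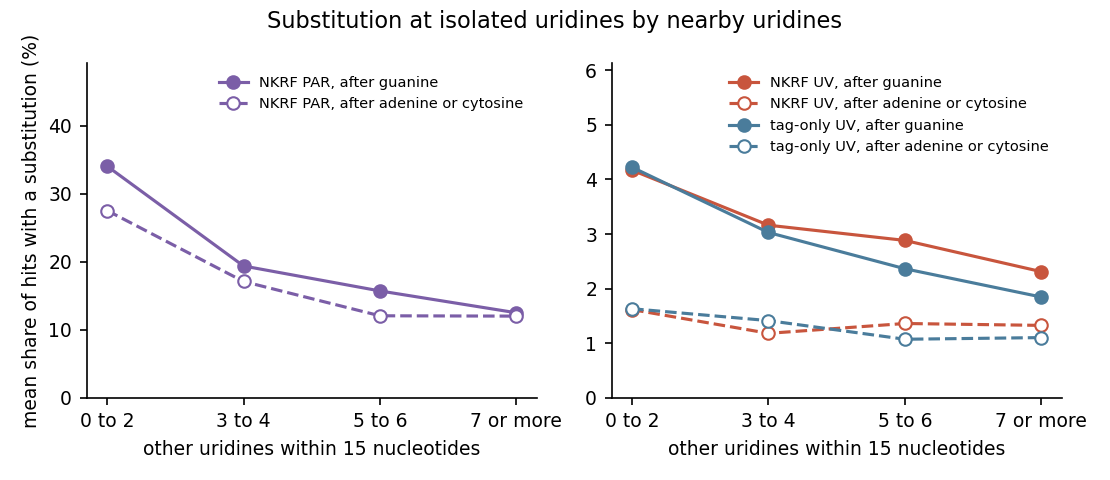
Mean share of hits with a substitution (%) at isolated uridines grouped by the number of other uridines within 15 nucleotides, for NKRF PAR (left) and both UV libraries (right); filled points follow guanine, open points follow adenine or cytosine, and lines only join the classes. The PAR lines fall from 34% and 27.5% to 12.5% and 12%, and in the UV panel the filled points lie above the open ones in every class.

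The 119 T past 50% with PAR had a median of 3 other T nearby, against 5 for all 1467 T and 6 for the 251 T with no PAR substitution. G came before 51.3% of them, against 41.3% of T substituted in 10% to 50% of hits and 36.3% of T with no PAR substitution. They included 5′ ETS position 3140, substituted in 99.3% of hits (98.8 to 99.6, 1692 of 1704 reads), 28S position 4807 in 98.3% (93.4 to 99.8, 104 of 106 reads) and 5′ ETS position 3274 in 95.6% (92.5 to 97.7, 263 of 275 reads). Each had 0 or 1 other T nearby, so the same limit on read choice applies. NKRF UV substitutions at these 3 T were 1.80%, 7.76% and 1.41%.

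PAR and UV shares were only weakly related from T to T. Over the 1338 T measured in both NKRF libraries the Spearman correlation of substitutions was 0.18, and 10 T passed both cut-offs, which is 9.52% of the 105 that passed with PAR and 29.4% of the 34 that passed with UV. 28S position 1225, after AGG, was one of them, with 67.9% by PAR (59.1 to 75.9), 11.2% by NKRF UV (9.68 to 12.9) and 16.7% by tag-only UV (8.15 to 28.1). 28S position 3993 combined 85.6% PAR substitution (75.9 to 92.6) with deletions of 4.85% in NKRF UV (3.83 to 6.06) and 11.2% in tag-only UV (7.18 to 15.9). The first G of the pair before it was deleted too, in 5.01% and 6.77% of hits.

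Deletions followed the runs of T, in a way that depends on how they are counted. The deleted base was listed at the first T of a run almost always: 94.3% of deletions in T runs with NKRF UV and 96.5% with tag-only UV. Loss of any base of a run leaves the same cDNA, and runs of A, C and G had 96.9%, 96.3% and 97.0% of theirs at the first base with NKRF UV. The place within a run therefore cannot tell which T was lost. Pooled over hits, the first T had 1.11% deletions with NKRF UV (1.07 to 1.15) and 1.13% with tag-only UV (1.08 to 1.19), and the last T 0.0286% and 0.0217%.

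Counted per run, a measure added after the first values were seen, deletions were more frequent the longer the run, in both libraries. Isolated T averaged 0.470% with NKRF UV (1166 T), runs of 2 had 0.745% (219 runs), runs of 3 had 2.63% (38 runs) and runs of 4 or more had 5.34% (13 runs). Tag-only UV had means of 0.257%, 0.418%, 2.32% and 9.48%, over 609, 139, 28 and 8. Pooled over hits, its runs of 3 had 3.63% and its runs of 4 or more 4.45%, and with NKRF UV these were 2.57% and 5.12%. Divided by the number of T, runs of 2 had less than isolated T, 0.372% against 0.470% with NKRF UV and 0.209% against 0.257% with tag-only UV, but pooled over hits they had more, 0.417% against 0.299% and 0.317% against 0.167%. Runs of 3 and of 4 or more had more even per T, at 0.875% and 1.31% with NKRF UV and at 0.775% and 2.31% with tag-only UV.

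**Figure D4:**
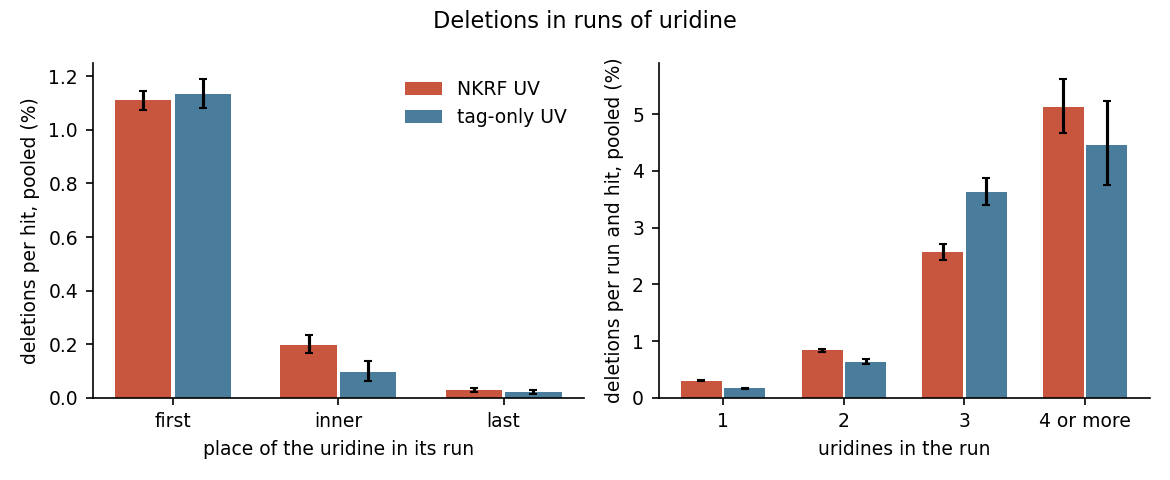
Left, deletions as a share of hits (%, pooled over positions) at the first, inner and last uridine of runs of at least 2; right, deletions summed over a run as a share of its mean hits (%, pooled over runs) by run length, for the NKRF UV and tag-only UV libraries, with exact 95% counting intervals. The first uridine holds 1.11% and 1.13% against 0.0286% and 0.0217% at the last, and runs of at least 4 stand above isolated uridines in both libraries.

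Deletions at runs also differed by the base before the run. The first T of a run had 1.75% deletions after C (1.53 to 1.96, 97 T), 1.02% after G (0.871 to 1.17, 110 T) and 0.532% after A (0.443 to 0.621, 63 T) with NKRF UV. Tag-only UV gave the same order, 1.63% after C (1.34 to 1.93), 1.06% after G (0.807 to 1.31) and 0.499% after A (0.332 to 0.666). The means kept that order within classes of run length: after C, G and A, runs of 2 had 1.03%, 0.745% and 0.272% with NKRF UV and 0.689%, 0.375% and 0.213% with tag-only UV. Runs of 3 or more had 4.34%, 2.26% and 1.91% with NKRF UV and 4.59%, 3.40% and 2.25% with tag-only UV, over 8 to 21 runs each, and some of these intervals overlapped. Their medians put A above G, at 1.65%, 1.21% and 1.38% with NKRF UV and 2.06%, 0.759% and 1.60% with tag-only UV. The means after G include 28S position 4555, deleted in 8.58% and 25.5% of hits, and were not recomputed without it. No order of G and A can therefore be read from these longer runs. Substitutions at the first T were highest after G instead, at 3.01% with NKRF UV and 2.95% with tag-only UV, against 1.13% to 1.33% after A or C.

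Isolated T with an A on either side had the lowest deletion shares. The 5 contexts with an A lay between 0.0460% and 0.201% with NKRF UV and between 0.0315% and 0.114% with tag-only UV. The 4 contexts without an A lay between 0.366% and 0.763% and between 0.122% and 0.538%, so the ranges came close with the tag alone, where counts were few. T between G and G had 0.763% (0.667 to 0.859) and 0.538% (0.338 to 0.737; 0.427% without 28S position 3993), and T between C and C had 0.517% (0.437 to 0.597) and 0.520% (0.338 to 0.702). T between G and C had 0.587% with NKRF UV, of which 1 site made the larger part: without 5′ ETS position 1757 it had 0.260%.

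The ratio of deletion shares after G to those after A or C varied by segment. Over all isolated T it was 1.77 with NKRF UV (1.51 to 2.07) and 1.17 with tag-only UV (0.694 to 1.96). The NKRF UV mean after G was 0.609%, or 0.461% without 5′ ETS position 1757, against 0.345% after A or C. In 28S the ratio was 0.967 with NKRF UV (0.785 to 1.19) and 1.33 with tag-only UV (0.675 to 2.61). In 18S it was 0.726 (0.565 to 0.933) and 0.989 (0.600 to 1.63). The 2.36-fold ratio in the spacers with NKRF UV (1.71 to 3.26) includes 5′ ETS position 1757 and ITS1 position 372. By G run, NKRF UV deletions were 0.345% with no G before the T, 0.514% after 1 G, 0.705% after 2 and 0.909% after 3 or more. The last was 0.518% without ITS1 position 372, where the first G of the run before the T was deleted about as often as the T. The class after 1 G includes 5′ ETS position 1757, deleted in 82.3% of hits, and was not recomputed without it. No rise from no G to 1 G can therefore be read from these means. In 28S alone NKRF UV deletions were 0.246%, 0.459% and 0.681% after 1, 2 and 3 or more G. Tag-only UV had 0.241%, 0.181%, 0.473% and 0.481%, the last 0.0697% without 28S position 2761.

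5′ ETS position 1757 was unlike any other T. With NKRF UV it was deleted in 82.3% of hits (77.0 to 87.0, 197 of 239 reads) and substituted in a further 13.2% (9.34 to 18.4, 32 of 239 reads). With NKRF PAR it was substituted in all of its 16 reads (79.4 to 100). Tag-only UV had no read there, so no background can be given. The bases on either side had 2.71% substitutions and 0 deletions (the G before) and 1.26% deletions and 0.418% substitutions (the C after) with NKRF UV, so the changes lay at the T itself.

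Of the 39 T deleted in at least 5% of hits with NKRF UV, 13 were measured with the tag alone, and 8 of those passed 5% there too. This overlap was not computed for the other nucleotides either. 28S position 4351, the start of a run of 4, had 21.6% with NKRF UV (18.1 to 25.5, 109 of 504 reads) and 19.1% with tag-only UV (13.3 to 25.9, 31 of 163 reads). 28S position 2761 had 12.1% (9.42 to 15.4) and 10.3% (3.40 to 22.2), and 28S position 512 had 8.17% (6.34 to 10.3) and 12.2% (5.14 to 21.6). All these intervals overlapped. ITS1 position 372, after 7 G, had 27.1% with NKRF UV (22.6 to 31.7, 105 of 389 reads), and 2 of the 7 tag-only UV reads there were deleted. The changes there were not confined to the T: the first of the 7 G was deleted in 29.8% of NKRF UV hits. With tag-only UV that G had 36.4% of 11 hits. At 28S position 2761 the first G of the run before the T likewise had 12.1% and 9.80%. Whether the same reads lost both bases was not tested. 18S position 8 gave the most deleted reads with NKRF UV, at 5.93% (5.50 to 6.37) against 4.49% with tag-only UV (3.96 to 5.09).

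The run of 5 at 28S position 4435 and the run of 6 at 28S position 4066 are printed because they are the longest, and the capitals mark the runs.
28S position 4435: gacgtcgcTTTTTgatccttc
28S position 4066: tctgatcgTTTTTTcactgacc
At the run of 5 the deletions lay on the first T, 6.81% with NKRF UV and 8.98% with tag-only UV, then 1.01% and 0.623% on the next and 0 on the others. PAR substitutions there were 0% at the first T, then 6.77%, 9.49%, 16.1% and 7.03%. Each T of this run had 128 to 137 PAR hits, and 1 PAR read stood for 4.43 hits. These shares rest on few reads, so no place along the run can be read from them. The run of 6 had no deletion in either UV library at 126 to 146 NKRF UV hits a base, and its 40 PAR hits fell just below the minimum; they were changed at the 4th T (32.5%) and the 5th T (67.5%).

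PAR substitutions in runs did not gather at the first T. Mean shares were 16.2% at the first T of a run (15.3 to 17.1), 15.5% at inner T (13.4 to 17.6) and 18.2% at the last (17.3 to 19.1), close to the 18.2% of isolated T. Pooled over hits the last T had 29.8%, and 24.4% without 28S position 2189, which is substituted in 76.9% of its hits. UV substitutions ran the other way in NKRF UV, at 1.97%, 1.05% and 1.35%, and in tag-only UV, at 1.87%, 0.802% and 1.26%.

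The segments also differed. NKRF UV substitution means ran from 1.38% in 5.8S and 1.59% in 18S to 2.38% in the 5′ ETS, and NKRF PAR means from 12% in 5.8S and 12.9% in 18S to 22.0% in ITS2. NKRF UV deletions were highest in the 5′ ETS at 0.862%, or 0.627% without position 1757, and in ITS1 at 0.727%, against 0.280% in 18S. T after G exceeded T after C within each segment grouped by the base before, and 5.8S and the 3′ ETS were not grouped. The NKRF UV means were 3.39% to 1.37% in 28S, 2.76% to 1.34% in 18S, 3.16% to 1.32% in the 5′ ETS, 3.10% to 1.23% in ITS1 and 2.70% to 1.21% in ITS2.

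The final comparison asked whether tagged NKRF changed these shares at the same T. Over the 1006 T measured in both UV libraries substitutions averaged 1.80% with NKRF and 1.70% with the tag alone, a ratio of 1.06 (1.01 to 1.11), and deletions 0.356% in both, a ratio of 0.999 (0.860 to 1.16). Taken T by T, substitutions were higher with NKRF at 588 T, lower at 391 and equal at 27. Deletions were higher at 324 T, lower at 139 and equal at 543. These counts do not allow for the unequal depths of the libraries. T after G had a substitution ratio of 1.07 (1.0 to 1.15), T after A 1.14 (1.01 to 1.30) and T after C 0.998 (0.893 to 1.12). 18S had 1.16 (1.11 to 1.22), 28S 1.03 (0.953 to 1.10) and 5.8S 0.799 (0.653 to 0.977). The context means thus changed little between the libraries, while A nucleotides had 5.20% with the tag alone and 2.81% with NKRF over their own positions.

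**Figure D5:**
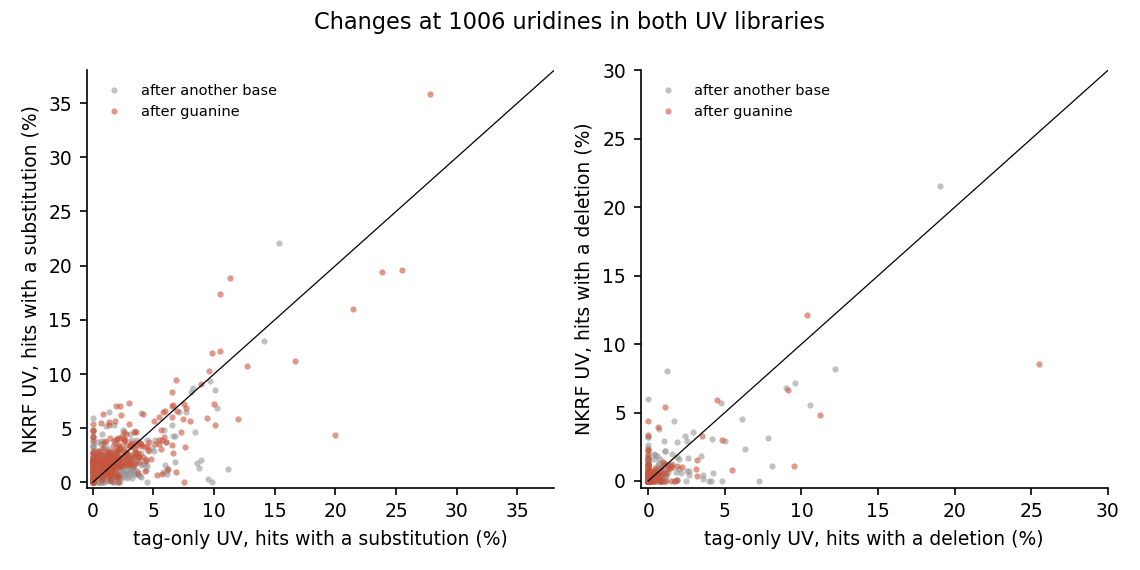
Each point is 1 of 1006 uridines, with the share of hits changed in tag-only UV (x, %) and in NKRF UV (y, %), substitutions left and deletions right; the line marks equal shares and red points follow guanine. Most points lie near the origin on both axes, and the substitution points past 10% in both libraries are nearly all red.

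For single T the exact intervals of the 2 libraries were set side by side. Substitutions were higher with NKRF, with intervals apart, at 38 T (3.78%, against 2.48% of all positions), 30 of them in 18S and 8 in 28S. They were lower at 26 T (2.58%, against 7.44% of all positions). Deletions were higher at 8 T (0.795%, against 0.268%) and lower at 16 T (1.59%, against 0.999%). In 18S the higher calls were 7.48% of 401 T and the lower calls 2.24%, and in 28S they were 1.46% and 2.37% of 548 T. Intervals narrow with depth, and the depths were unlike. Reads summed over these T with tag-only UV were 655164 in 18S and 90060 in 28S. The shares of calls therefore cannot be compared between the segments.

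Among T lower with NKRF were 3 in 5.8S by deletion, at positions 7, 123 and 127. Position 7 had 0.127% with NKRF UV (0.0142 to 0.423) against 3.59% with tag-only UV (1.81 to 6.36), position 123 had 0.372% against 3.15%, and position 127 had 2.34% against 6.32%. All of 5.8S averaged 0.183% against 0.416% over 35 T, a ratio of 0.440 (0.295 to 0.656). That difference in means rests on these 3 T: the other 32 averaged 0.111% with NKRF UV and 0.0462% with tag-only UV. Of these 32, 8 were higher with NKRF, 1 lower and 23 equal. The 3 were left out for being lower with NKRF, so the direction of the rest follows in part from that choice. Tag-only UV also had fewer hits, 633 against 5007 at position 127, so rare deletions are more easily missed there. 18S position 366 had 5.55% with NKRF UV (4.90 to 6.25, 253 of 4561 reads) and 10.5% with tag-only UV (9.68 to 11.5, 486 of 4604 reads), and 28S position 4555 had 8.58% (6.65 to 10.8) and 25.5% (18.3 to 34). Among T higher with NKRF, 28S position 2304 had 6.00% (3.23 to 10.0) against 0% with an upper bound of 2.98%, and 28S position 2384 had 1.65% (1.23 to 2.13) against 0% with an upper bound of 0.498%. With 1 library on each side, these differences cannot be told apart from differences between any 2 libraries.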

How the data were processed

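Reads of 3 CRAC libraries were used; per the submitters' processing notes, the mapper was Bowtie2 2.2.4. Build, pre-rRNA reference, read filters and mismatch settings: not given in the sources used here. The deposited signal is hits per nucleotide of the 47S pre-rRNA, with substitutions and, for UV, deletions per the file headers; the values show scaling to 1000000 reads and rounding. The value of 1 read, found from the spacing of low change values, was 1.19, 0.920 and 4.43 hits for tag-only UV, NKRF UV and NKRF PAR (841751, 1086957 and 225938 reads), and served only for counting error. Shares are changes over hits at T with at least 45 hits, with exact Clopper-Pearson 95% intervals for single positions and binomial counting intervals for means and ratios. The tag-only PAR library was not analysed here. Named T were drawn from the 6 highest shares and the most changed reads for each change and library, and not all of these are named. All runs of 5 or more are given. Other T named were chosen after their values were seen. Members and groupings were chosen with earlier results of these data known. Functions were tested on simulated data. Python 3.11.15, numpy 2.4.6, pandas 2.3.3, scipy 1.17.1 and matplotlib 3.10.9 were used.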

Additional observations from a re-analysis of the deposited data

How the results depend on the processing

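Each contrast was recomputed with changes pooled over hits, at 100 hits, without the most changed T of each group, and at T measured in all 3 libraries. Of these, 61 ratios kept their value within counting error, 22 moved and 3 reversed; the cause was not tested. Values are log2 ratios. Runs over isolated T: NKRF PAR substitutions turned from -0.10 to 0.40 when pooled; NKRF UV deletions went from 0.23 to 0.85 pooled, 0.78 at T in all 3 libraries and 1.39 with a run as 1 unit, and tag-only UV deletions from 0.98 to 1.69 and 2.15 (pooled, run as 1 unit). A or G over C before T: NKRF PAR 0.41 at 100 hits; NKRF UV substitutions 0.87 pooled and 0.71 in all 3 libraries, NKRF UV deletions turned from 0.20 to -0.22 and -0.66. G over A or C, chosen after seeing the data, gave 1.23 and 1.16 for NKRF UV and tag-only UV substitutions. A or G over C after T: NKRF PAR 0.041 pooled and 0.052 in all 3 libraries, NKRF UV substitutions 0.25 and 0.20, tag-only UV substitutions 0.067 pooled and 0.19 at 100 hits, NKRF UV deletions turned from -0.14 to 0.30 without the most changed T. The starting intervals of these deletion ratios included 0, so they are not among the 3 reversals. Spacers over mature rRNA: NKRF PAR 0.23 pooled, 0.036 at 100 hits and reversed to -0.12 in all 3 libraries; NKRF UV substitutions 0.0095 in all 3 libraries; NKRF UV deletions 0.62 pooled, 1.31 at 100 hits, 0.62 without the most changed T and reversed to -1.10 in all 3 libraries, where 22 spacer T or fewer remain. NKRF UV over tag-only UV substitution was 0.37 pooled. At 100 hits the T past the cut-off numbered 74 for PAR substitutions, 11 for tag-only UV substitutions and 11 for tag-only UV deletions. No paired analysis was possible because each condition is 1 library.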
